A study of Mus musculus with 4 samples.

Results

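The genes described here carry fatty acids into adipocytes, bind them in the cytosol and activate them to acyl-CoA. Of 10 listed genes, 7 had probe sets that the platform annotation names with exactly 1 gene symbol: Fabp3, Fabp4, Fabp5, Cd36, Lpl, Slc27a1 and Slc27a4. All of their probe sets were kept, 14 of the 23599 tested, and these 7 are among 10926 named genes. Acsl1, Slc27a2 and Gpihbp1 were not analysed here. The cells were mouse brown adipocytes of wild type genotype, whose preadipocytes carried either a vector for Blnc1, a long noncoding RNA of brown fat, or the empty one. Both groups had been differentiated for 6 days, and each was read on 2 Affymetrix arrays from total RNA. The labels call the replicates biological without saying that they came from separate transductions, so p-values measure only the spread between these arrays.

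Circulating triglyceride is cut by lipoprotein lipase, which adipocytes make and secrete, and the released fatty acids enter through the scavenger receptor CD36. Fatty acid transport proteins of the SLC27A family and long-chain acyl-CoA synthetases trap them as acyl-CoA, while fatty acid binding proteins carry them through the cytosol. Brown fat burns these acids for heat, and most of the genes are known targets of the PPAR nuclear receptors.

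No member passed the test under the main model. By limma with Benjamini-Hochberg adjustment over all probe sets, 0 of the 14 member probe sets passed an adjusted p of 0.05, against 0.928% of all probe sets (0.623% higher and 0.305% lower), and 0 had an unadjusted p under 0.05, against 18.9% of all probe sets. The member log2 fold changes (Blnc1 minus vector) lay between -0.17 and 0.19, with a median of -0.046, against a median of 0.0056 over all probe sets. The smallest absolute log2 fold change among the 219 probe sets that passed was 0.53, and 27.8% of all probe sets had moved further than the member that moved most. In the same arrays Ucp1, the uncoupling protein of brown fat, rose 7.99-fold and the lipid droplet gene Cidea 8.71-fold (limma adjusted p = 2.70e-04 and 4.43e-04).

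The call depended on how the variance was modelled. A variance prior that follows the level of a probe set, in place of the constant one, called 2 of the 14, both lower in Blnc1 cells, where it called 9.21% of all probe sets (4.17% lower). These were the brighter probe set of Fabp5 and the dimmer one of Lpl, described below. At their levels it called a larger share in either direction, 30 of the 157 probe sets with a mean above 12. Between 10 and 12 it called 387 of 1152. With this level-dependent prior 4 of the 14 had an unadjusted limma p under 0.05, against 5219 of all 23599 probe sets. The constant prior carried an SD of 0.092 log2 units. The median SD within groups was 0.020 among the 157 probe sets with a mean above 12. It was 0.107 among the 7211 with a mean up to 5.

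**Figure D1:**
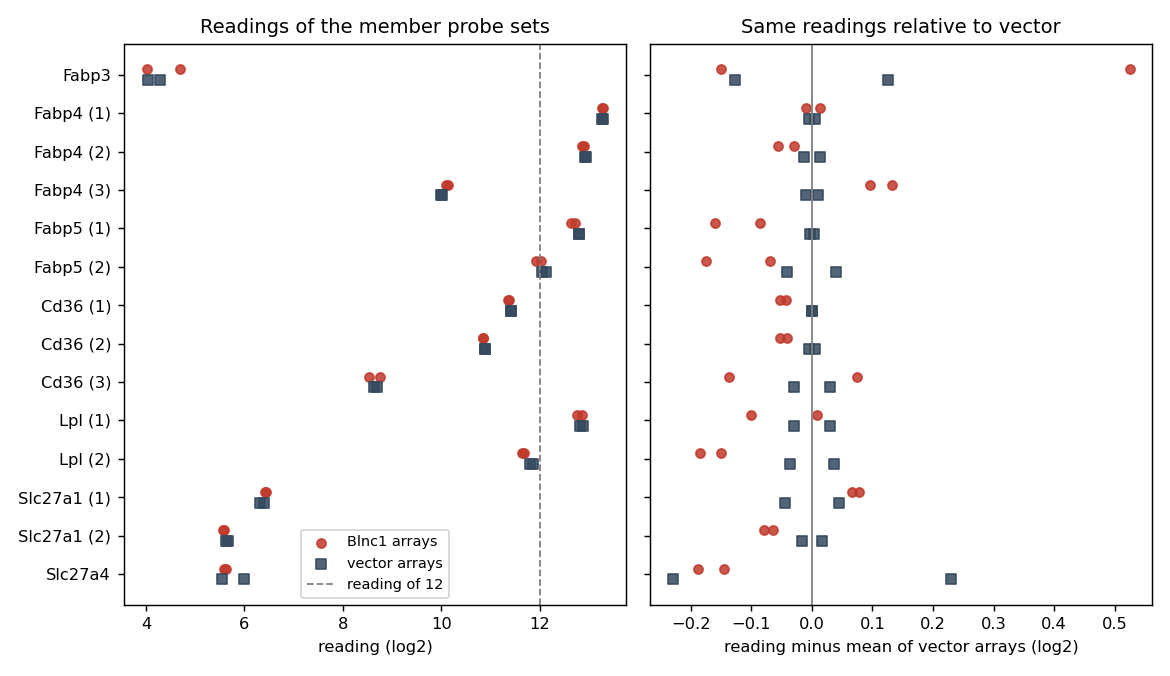
Readings (log2) of the 14 member probe sets on the 2 Blnc1 arrays (circles) and the 2 vector arrays (squares), at left as deposited and at right minus the mean of the vector arrays. Probe sets of a gene are numbered from the brightest; the right panel shows that all other readings lie within 0.25 of the vector mean, with 1 Blnc1 reading of Fabp3 0.52 above it.

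Above about 12 the readings approach the upper end of the scale, where differences may be compressed. All 4 readings were above 12 for 4 member probe sets, 2 of Fabp4 and 1 each of Fabp5 and Lpl, and a further Fabp5 probe set had readings on both sides of 12. Between 155 and 168 probe sets of an array read above 12. Folds at this level may be understated.

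Lpl, the secreted lipase that frees fatty acids from lipoproteins, has 2 probe sets. The brighter read 12.86 and 12.75 on the Blnc1 arrays, against 12.88 and 12.82 on the vector arrays. The groups overlapped, with a log2 fold change of -0.046 ± 0.083 (SE). The dimmer read 11.68 and 11.64 on the Blnc1 arrays, against 11.87 and 11.79 on the vector arrays. Here both Blnc1 readings lay below both vector readings, and the log2 fold change of -0.17 ± 0.078 (SE, 0.891-fold) did not pass (limma adjusted p = 0.321). It had the smallest p of the 14. With the level-dependent prior its SE was 0.035 and it passed (limma adjusted p = 0.0122).

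Cd36, the scavenger receptor that takes up long-chain fatty acids, has 3 probe sets, none with a reading above 12. The brightest read 11.37 and 11.36 on the Blnc1 arrays, against 11.41 and 11.41 on the vector arrays. The second read 10.84 and 10.85 on the Blnc1 arrays, against 10.88 and 10.89 on the vector arrays. For both of these the Blnc1 readings lay below the vector readings, by log2 fold changes of -0.048 ± 0.075 and -0.047 ± 0.075 (SE). The dimmest read 8.75 and 8.54 on the Blnc1 arrays, against 8.70 and 8.64 on the vector arrays, and its groups overlapped. The 95% confidence interval of the brightest probe set ran from 0.852-fold to 1.10-fold, which leaves out changes beyond those bounds under the fitted model. Neither variance prior called any Cd36 probe set.

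Slc27a1 (FATP1) and Slc27a4 (FATP4), membrane proteins with acyl-CoA synthetase activity that promote fatty acid uptake, read close to the array medians of 5.98 to 6.04. The brighter Slc27a1 probe set read 6.42 and 6.43 on the Blnc1 arrays, against 6.40 and 6.31 on the vector arrays. The dimmer read 5.58 and 5.57 on the Blnc1 arrays, against 5.66 and 5.63 on the vector arrays. The groups did not overlap on either probe set, but the directions were opposite, with log2 fold changes of 0.072 ± 0.079 and -0.072 ± 0.076 (SE). The mean of both probe sets gave 1.06e-07, and neither direction passed the test. Slc27a4 read 5.62 and 5.58 on the Blnc1 arrays, against 5.53 and 5.99 on the vector arrays. Its vector arrays differed by 0.46, more than the groups did (-0.17 ± 0.15 SE), and the log2 fold change was 0.063 without vector replicate 2 and -0.40 without vector replicate 1.

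Fabp4 (aP2), the abundant fatty acid binding protein of adipocytes, has 3 probe sets. Its brightest gave the highest reading of all probe sets on each of the 4 arrays, 13.27 and 13.29 on the Blnc1 arrays and 13.27 and 13.28 on the vector arrays. A rise may be understated at this level, which was not tested. The log2 fold change was 0.0016 ± 0.075 (SE), turning negative after median centring (-0.014). The second read 12.87 and 12.89 on the Blnc1 arrays, against 12.93 and 12.91 on the vector arrays, so that the Blnc1 readings were the lower ones (-0.043 ± 0.076 SE). The dimmest probe set, well below the ceiling, read 10.13 and 10.09 on the Blnc1 arrays, against 10.004 and 9.98 on the vector arrays. Both Blnc1 readings were higher, by 0.11 ± 0.076 log2 units (SE), which did not pass (limma adjusted p = 0.476), with a 95% confidence interval from 0.952-fold to 1.23-fold. With the level-dependent prior it did not pass either (limma adjusted p = 0.171).

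Fabp5, the epidermal-type binding protein that adipocytes also make, was lower on both of its probe sets without passing the test. The brighter read 12.63 and 12.71 on the Blnc1 arrays, against 12.79 and 12.80 on the vector arrays. The dimmer read 12.02 and 11.92 on the Blnc1 arrays, against 12.13 and 12.05 on the vector arrays. Neither pair of groups overlapped, and the log2 fold changes were nearly equal, at -0.12 ± 0.078 and -0.12 ± 0.084 (SE, limma adjusted p = 0.456 and 0.492). With the level-dependent prior the brighter one passed (0.918-fold, SE 0.029, limma adjusted p = 0.0213) and the dimmer one did not (limma adjusted p = 0.0887).

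Fabp3, the heart-type binding protein found in oxidative tissues including brown fat, was read near the floor of the arrays. It stood at 4.69 and 4.01 on the Blnc1 arrays, against 4.04 and 4.29 on the vector arrays, below the lower quartile of each array (4.77 to 4.78). The Blnc1 arrays differed by 0.68, against 0.25 between the vector arrays and a median of 0.10 between the Blnc1 arrays over all probe sets. The groups overlapped, and the difference of 0.19 ± 0.22 log2 units (SE) did not pass (limma adjusted p = 0.707). It was 0.52 without Blnc1 replicate 2 and -0.15 without Blnc1 replicate 1. Its 95% confidence interval, from 0.781-fold to 1.66-fold, was the widest of the 14.

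**Figure D2:**
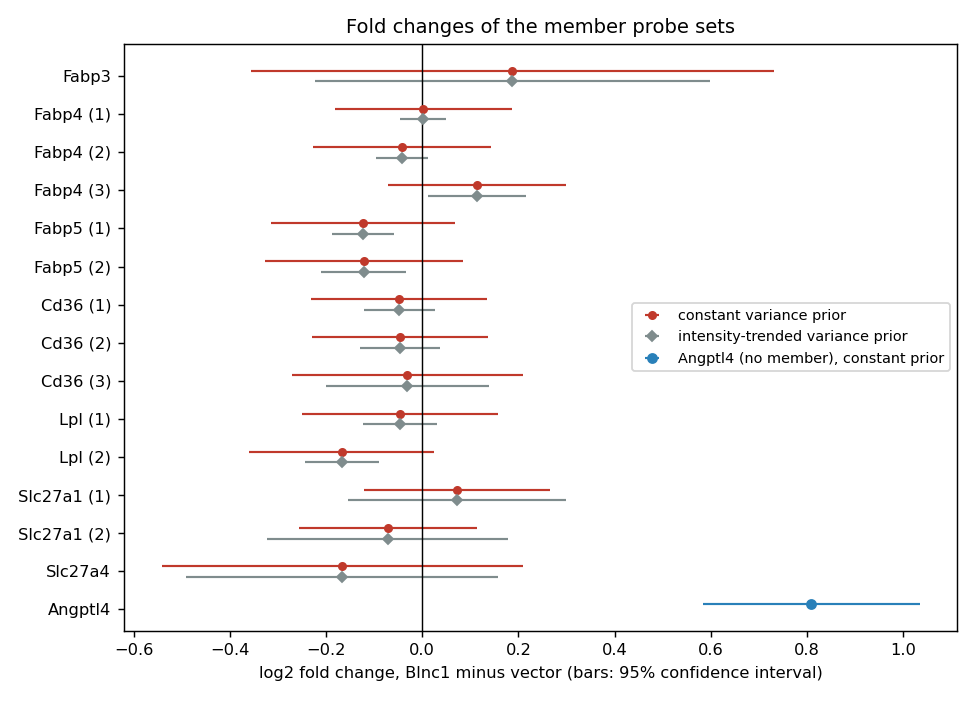
Log2 fold changes (Blnc1 minus vector, horizontal axis) of the 14 member probe sets with 95% confidence intervals, from limma with a constant variance prior (circles) and with an intensity-trended prior (diamonds), and of Angptl4, the gene of the wider pathway that passed. With the constant prior every member interval spans 0; the trended prior narrows those of bright probe sets, and 2 then passed, Fabp5 (1) and Lpl (2).

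Considered together, 9 of the 14 member probe sets had groups that did not overlap, against 50.4% of all probe sets. In 7 of them Blnc1 cells were lower (24.0% of all probe sets) and in 2 higher (26.4% of all). The 7 came from Cd36, Fabp4, Fabp5, Lpl and Slc27a1, and probe sets of 1 gene are not independent of each other. Set against probe sets of like level, the members were not extreme. Among probe sets with a mean above 12, the 5th and 95th percentiles of the log2 fold changes were -0.15 and 0.12, among those between 10 and 12 they were -0.25 and 0.31. All 14 members lay between these percentiles for their own level.

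**Figure D3:**
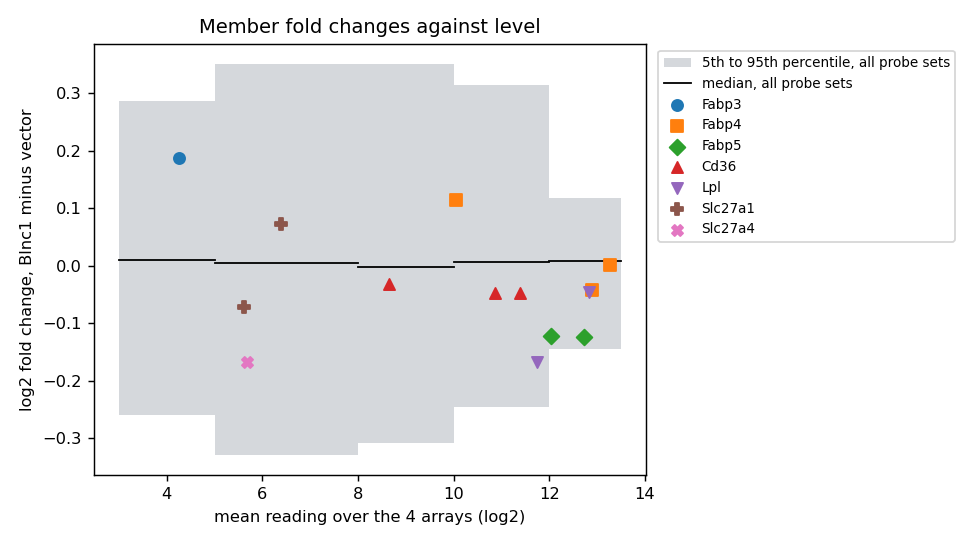
Log2 fold change (vertical axis) of the member probe sets against their mean reading over the 4 arrays (log2, horizontal axis), with the 5th to 95th percentiles (grey) and medians (lines) of all probe sets in 5 ranges of level. All 14 members lie within the grey range of their level, which is narrowest above 12.

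The wider pathway was read from lists of 80 other genes, of which 51 were measured, each by its brightest probe set. Of these 1 rose and none fell (0.860% of all genes rose, and 1.23% passed in either direction), 17 had an unadjusted p under 0.05 (20.7% of all genes had one), and the median log2 fold change was 0.045, against 0.0073 over all genes. The gene that rose was Angptl4, a secreted protein that inactivates lipoprotein lipase and is itself a PPAR target. It read 9.14 and 9.15 on the Blnc1 arrays, against 8.43 and 8.24 on the vector arrays. This was a 1.75-fold difference (log2 fold change 0.81 ± 0.092 SE, limma adjusted p = 0.0348). Its probe set is of a type whose probes can match several transcripts. The size held between 0.72 and 0.90 when any 1 array was left out, but the adjusted p then lay between 0.0638 and 0.159, above 0.05 in all 4 fits.

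Among 14 measured genes of lipase maturation and control, 8 had positive and 6 negative log2 fold changes. Lipg, the endothelial lipase, stood at -0.54 ± 0.081 (SE) on a dim probe set that read 3.84 and 3.74 on the Blnc1 arrays, against 4.35 and 4.30 on the vector arrays. It did not pass under the main model (limma adjusted p = 0.0547). Lipg passed with the level-dependent prior (limma adjusted p = 0.0111), after median centring (0.0443) and with averaged probe sets (0.0207). It did not with a robust variance prior, after repeated quantile normalization, without moderation of variances or with the replicate number as a block. With a mean under 5 it was not in the filtered fit. Sdc4, a heparan sulfate proteoglycan of the cell surface, stood at 0.32 and 0.42 on its 2 probe sets, and neither passed under the main model. Of 11 measured receptors and caveolar proteins none passed under the main model. Ffar4 (GPR120), a receptor for long-chain fatty acids, had the largest log2 fold change of the 51, at 1.24 ± 0.19 (SE, limma adjusted p = 0.0559). Its readings were 8.86 and 9.29 on the Blnc1 arrays and 7.63 and 8.04 on the vector arrays, so the groups were far apart while replicates differed by 0.44 in Blnc1 and 0.41 in vector cells. Ffar4 passed with the level-dependent prior (limma adjusted p = 3.44e-04) and among probe sets with a mean of at least 5 (limma adjusted p = 0.0429). It also passed with the replicate number as a block (limma adjusted p = 0.0495) and when the probe sets of each gene were averaged (limma adjusted p = 0.0212). It did not pass with a robust variance prior, after repeated quantile normalization, after median centring or without moderation of variances. Scarb1, the scavenger receptor for high-density lipoprotein, stood at -0.26 ± 0.086 (SE).

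Of 7 other binding proteins measured none passed under the main model, and the median log2 fold change was -0.028. Scp2, the sterol carrier protein, stood at -0.23 ± 0.085 and the retinoic acid binding protein Crabp2 at 0.045 ± 0.080 (SE). Among 9 other acyl-CoA synthetases 7 had positive log2 fold changes (list median 0.20) without any passing under the main model. The groups did not overlap for any of the 9, which held for 50.4% of all probe sets. Acsl5, a long-chain acyl-CoA synthetase, read 10.29 and 10.24 on the Blnc1 arrays, against 10.01 and 9.88 on the vector arrays (0.32 ± 0.084 SE, limma adjusted p = 0.133). Acss1, the mitochondrial acetyl-CoA synthetase, stood at 0.45 ± 0.077 (SE, limma adjusted p = 0.0658) on a dim probe set with a vector mean of 3.66. Of 10 acyl-CoA thioesterases, which return acyl-CoA to free fatty acid, 8 had positive log2 fold changes (list median 0.13), again without any passing under that model. The nearest were Acot10 at 0.35 and Acot9 at 0.34, closely related genes whose probe sets may not tell them apart. With the level-dependent prior Acsl5, Acsl4 and Acss1 passed as higher (limma adjusted p = 0.00339, 0.0114 and 0.0231). So did Acot10, Acot9 and Acot13 (limma adjusted p = 0.00564, 0.0104 and 0.0144), while Scp2 passed as lower (0.00954). That prior called 15 of the 51 pathway genes, 10 higher and 5 lower, against 11.3% of all genes.

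**Figure D4:**
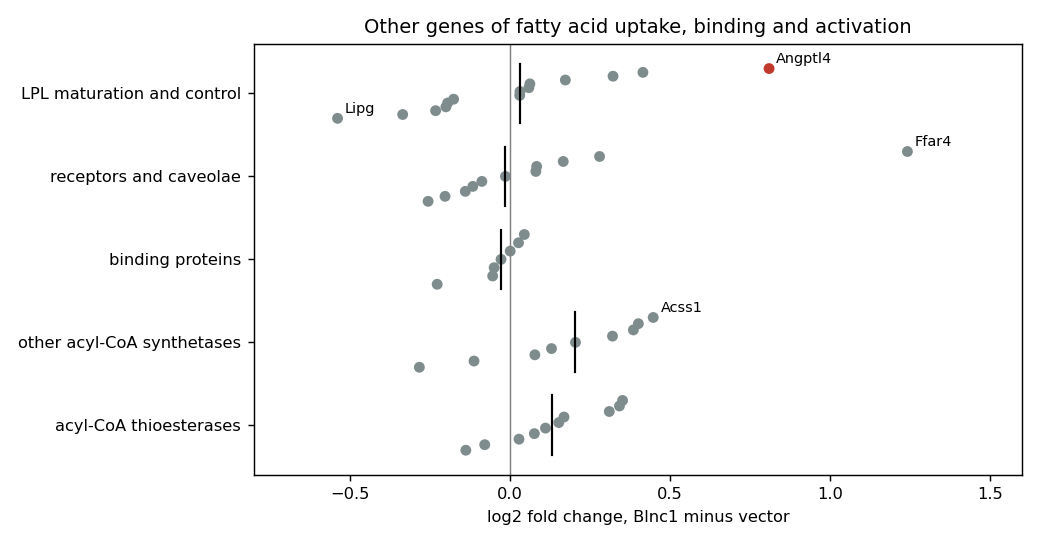
Log2 fold changes (Blnc1 minus vector, horizontal axis) of 51 other genes in 5 lists, 1 point per gene, with the list median as a line; the red point passed an adjusted p of 0.05. Angptl4 alone passed under the main model, and Ffar4 lies farthest to the right at 1.24.

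The library labels were checked on Blnc1 itself. The brighter of 2 probe sets named C730029A08Rik, which the gene table lists with Blnc1, had a log2 fold change of 4.63 ± 0.077 (SE). The dimmer stood at -0.31 ± 0.14 (SE), with both Blnc1 readings below both vector readings, and did not pass (limma adjusted p = 0.315). Which of them lies within the expressed sequence was not analysed here. The groups also differed outside the pathway, in genes that can mark the origin or quality of a sample and in hybridization controls. Y-linked Eif2s3y was lower (-1.18) and the brightest Xist probe set higher (0.55) in Blnc1 cells. All 18 hybridization control probe sets, which are not genes of the sample, were lower on the Blnc1 arrays (median -0.27). The Gapdh control read 0.28 higher at its 3' than its 5' end in Blnc1 arrays and 0.41 higher in vector arrays. For the Actb control the same differences were 1.34 in Blnc1 arrays and 1.51 in vector arrays. Of 6 measured preadipocyte and fibroblast markers all 6 had negative log2 fold changes (median -0.38, none past the test). Their list means were 6.00 and 6.04 on the Blnc1 arrays and 6.33 and 6.35 on the vector arrays. Of these markers Pdgfra read near the floor, from 3.56 to 4.01, and its groups overlapped (-0.093). Pdgfrb was also dim, at 4.66 to 4.86. The 6 measured markers of adipocytes in general had 3 positive and 3 negative log2 fold changes (median -0.017, none past the test). All 8 measured brown adipocyte markers had positive ones (median 1.09), and 5 passed, against 1.23% of all genes. The part of these differences in the Angptl4 result was not tested. Since Cd36 and Lpl are also made by endothelial cells or macrophages, markers of those cells were read. The 3 measured endothelial markers of 10 listed averaged 4.88 and 4.94 on the Blnc1 arrays and 4.97 and 4.85 on the vector arrays. The 3 measured macrophage markers of 10 averaged 4.40 and 4.41 on the Blnc1 arrays and 4.28 and 4.37 on the vector arrays. In such bulk RNA, fewer cells of a type and less RNA per cell cannot be told apart.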

How the data were processed

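Biotin-labelled RNA from 4 samples was hybridised to 1 single-colour array each. The authors deposited 1 log2 value per probe set and array, with RMA, limma and affy as the tools named, per the submitters' processing notes; versions and settings are not given in the sources used here. The log2 scale was read from the values. RMA equalises the distributions of arrays, and folds at both ends of the scale may be compressed. Raw intensities were not used here, so no probe could be called saturated or below background by the scanner.

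The table held 23634 probe sets, of which 35 controls were left out. Of the tested ones 16692 had 1 gene symbol, 372 had several and 6535 had none. Blnc1 was compared with vector by limma 3.58.1 in R 4.3.3 (lmFit, eBayes, two-sided, no covariate, no filter), with Benjamini-Hochberg adjustment over all 23599 probe sets. The code was tested on simulated data whose variances did not depend on level. That test therefore did not cover the fall of the SD with level. In lists a gene was read by its brightest probe set on average. The genes named outside the members were those of each list past the threshold and the 2 next smallest p. The members and lists were chosen with earlier results of these data known. Alternatives were other variance priors, scalings, a filter, thresholds, the replicate number as a block, probe set means, and leaving out each array. The precision is limited by the number of arrays.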

Additional observations from a re-analysis of the deposited data

How the results depend on the processing

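Member probe sets past the threshold numbered 0 in every setting tried except the intensity-trended prior, which called 2. Across all probe sets 219 passed (147 higher, 72 lower). There were 2174 with the trended prior, 453 among probe sets with a mean of at least 5, 958 at an adjusted p of 0.10 and 0 without moderation of variances; median centring gave 176 higher and 135 lower. Of 51 pathway genes 15 passed with the trended prior (11.3% of all genes), 6 when the probe sets of each gene were averaged (4.27% of all), 5 at an adjusted p of 0.10 (4.99%), 2 after median centring (1.71%), 2 of 43 among probe sets with a mean of at least 5 (3.28%), and 0 without moderation, where no gene passed. Leaving out 1 array in turn left 3 to 38 probe sets past the threshold, with 0 pathway genes and 0 members. With the replicate number as a block 30 probe sets passed, no member did, and Ffar4 passed (limma adjusted p = 0.0495) in place of Angptl4 (0.0819). The numbers are not stated to pair the arrays, and the differences between replicates 2 and 1 correlated across probe sets at 0.089 between the groups. Among the brightest probe sets of the members, signs turned for Fabp4 after median centring (-0.014) and without 1 array (lowest -0.0093, highest 0.013). They also turned without 1 array for Lpl (-0.10 to 0.0084), Fabp3 (-0.15 to 0.52) and Slc27a4 (-0.40 to 0.063), none of which passed. The brightest probe sets of Cd36, Fabp5 and Slc27a1 turned in no setting, while the dimmest of Cd36 ran from -0.14 to 0.075 without 1 array. The cause of these changes was not tested. Fabp3, with a mean under 5, was not in the filtered fit.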
